A study of Mus musculus with 4 samples.

Results

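The mitochondrial ribosomal protein genes are the nuclear genes named Mrpl (large subunit) and Mrps (small subunit). They were taken as the single genes whose symbol begins with Mrpl or Mrps and a digit, without pseudogene copies. The rule found 73 genes, 47 named for the large and 26 for the small subunit, among 39188 single genes and 40137 gene units in all. Subunits below are by gene name only. Mrpl33 was not analysed here. Mrpl53, Mrps24, Mrps34 and Mrps6 are not members, because the tables count each of them together with an overlapping gene.

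The tissue was thigh skeletal muscle from wild-type male mice of the C57BL/6J strain, with 3 RNA-seq libraries at 28 months of age and 1 at 18 months. The labels name no treatment at either age. The sequencing was meant as a check on a splicing analysis made with exon arrays. The extraction text in the labels describes epidermal keratinocytes, whereas the tissue label says skeletal muscle. Summed over 8 fast muscle fibre markers the level was 166290, 92303 and 172066 CPM (counts scaled to a common library size) at 28 months, against 100847 CPM at 18 months. Of 8 keratinocyte markers, 2 had enough counts to be tested. The sum of all 8 lay between 12.8 and 18.2 CPM in the 28-month libraries, against 16.3 CPM in the 18-month library.

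Mitochondria hold their own ribosome, which translates the few messages of the mitochondrial genome, all of them for membrane subunits of the respiratory chain and ATP synthase. Its rRNAs are made inside the organelle, while every one of its proteins is encoded in the nucleus, made in the cytosol and imported. Many of these proteins have counterparts in bacterial ribosomes and others exist only in mitochondria. Muscle depends heavily on this machine, and inherited defects of several of its proteins cause failure of oxidative phosphorylation, often with cardiomyopathy.

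The 28-month libraries held between 67279205 and 76163175 bin counts and the 18-month library 65780464. All 73 genes passed the minimum of 10 counts on average. A bin is a stretch of exon that all transcripts covering it share, and a gene's value is the sum of its bins. A fragment that spans several bins adds a count to each. No source says that the 28-month libraries come from separate mice, so p-values measure only the spread between these libraries, and the single library of the 18-month age had to be given their spread. In whole muscle, fewer cells of a type and less RNA per cell cannot be told apart. At 28 months replicate 2 stood apart from the others in scaled values. It gave the lowest of the 28-month values in 60 of the 73 genes (82.2%), against 43.0% of all genes tested. It also had the lowest sum of fast fibre markers given above and the highest sum of 5 fibroblast markers, with 971, 2624 and 1519 CPM at 28 months, against 1427 CPM at 18 months. Before scaling between libraries, the 73 genes took 0.322, 0.318 and 0.283% of all counts at 28 months, with replicate 3 the lowest. Where replicate 2 stands for these genes thus depends on the scaling. Results are given with and without replicate 2.

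No mitochondrial ribosomal protein gene passed the test for a change in amount between 28 and 18 months. At an adjusted p under 0.05 in edgeR's quasi-likelihood test, 0 of the 73 genes were called, beside a background of 0.0% of 15376 genes. At an unadjusted p under 0.05 there was 1 gene, Mrpl52, beside a background of 4.9%. DESeq2 called 0 of the 73 and 31 genes in all. The estimate was higher at 28 months in 48 genes (65.8%) and lower in 25, and among all genes 54.4% were higher. By subunit, the estimate was higher in 26 large subunit genes and lower in 21. It was higher in 22 small subunit genes and lower in 4. The median log2 difference (28 minus 18 months) was 0.11 for the 73 genes, 0.05 for the large subunit and 0.19 for the small subunit, against 0.06 over all genes.

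The 18-month value lay below all 3 values of 28-month libraries in 18 genes (24.7%, background 25.4%). It lay above all of them in 12 genes (16.4%, background 26.4%). In the large subunit those counts were 10 and 11, and in the small subunit 8 and 1. Without replicate 2 of the 28-month group, edgeR called 8 of the 73 genes, and all 8 were higher at 28 months. That is 10.96% of the genes, beside a background of 7.52% called higher and 4.37% called lower. The 8 were Mrpl2, Mrpl4, Mrpl13, Mrpl20, Mrpl30, Mrpl52, Mrps15 and Mrps18b. The median log2 difference without replicate 2 was 0.23, and without replicate 1 it was -0.01. With the most covered bin standing for each gene it was 0.41.

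**Figure D1:**
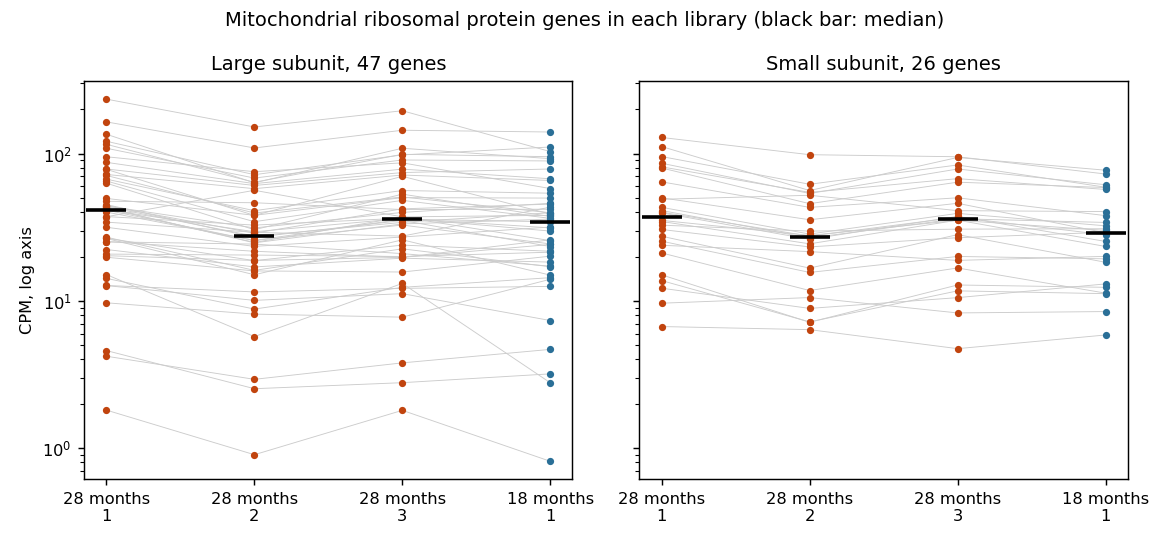
CPM (log axis) of each of the 47 large subunit and 26 small subunit genes in the 28-month libraries 1 to 3 and the 18-month library. Each point is a gene, grey lines join a gene across libraries and black bars are medians, which for the large subunit are 41.6, 27.5 and 35.9 CPM at 28 months, against 34.4 CPM at 18 months.

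Levels per length differed widely among the genes within each library. They could be set per kilobase of exon for the 44 genes whose number of bins matches the reference annotation. The length is that of all annotated exons of a gene, used in muscle or not. A fragment also counts more often in a gene of many short bins. The order below depends on both. Over the 4 libraries the large subunit genes ran between 3.28 and 71.9 CPM per kb with a median of 17.7, and the small subunit genes between 2.72 and 44.3 with a median of 7.99. By the mean over the 4 libraries, the highest levels per kb in the large subunit were those of Mrpl18 at 71.9, Mrpl12 at 65.2 and Mrpl2 at 48.1. Mrpl12 forms the stalk that binds translation factors, and Mrpl2 lies at the peptidyl transferase centre. In the small subunit Mrps15 (44.3), Mrps7 (40.9) and Mrps23 (39.8) led. The order varied by library. Mrpl12 stood above Mrpl18 in 28-month replicates 1 (88.3 against 86.7 CPM per kb) and 3 (71.0 against 70.1), and at 18 months Mrpl27 (36.4) stood above Mrpl2 (33.3). At 18 months Mrps23 (37.7) led the small subunit. By the same mean the lowest levels were those of Mrpl19 (3.28), Mrpl48 (4.44) and Mrpl17 (5.28) in the large subunit. In the small subunit they were those of Mrps26 (2.72), Mrps10 (2.80) and Mrps35 (3.41). Before division by length, Mrpl48 and Mrpl17 had means of 36.2 and 40.2 CPM, above the large subunit median of 34.1 CPM. Their annotated exons cover 8152 and 7605 bases.

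The gene with the smallest p in the large subunit was Mrpl52 (ENSMUSG00000010406, chromosome 14, 54426909 to 54429756, plus strand, GRCm38), a protein found only in mitochondrial ribosomes. Mrpl52 had 15.1, 5.72 and 13.1 CPM in the 28-month libraries, against 2.78 CPM in the 18-month library. The groups did not overlap, and replicate 2 lay nearest to the 18-month value. The log2 difference was 2.02 ± 0.67 (SE), with an unadjusted p of 0.0277 and an adjusted p of 0.859 in edgeR. All 5 of its bins had more counts in each 28-month library, and the last bin had 301, 204 and 243 counts, against 66 at 18 months.

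Mrpl30, the counterpart of a bacterial large subunit protein, had the highest mean CPM over the 4 libraries. At 18 months alone Mrpl42 (140 CPM) and Mrpl18 (111 CPM) stood above it. It had 234, 152 and 195 CPM at 28 months, against 103 CPM at 18 months. Its log2 difference of 0.91 ± 0.38 (SE) had an adjusted p of 0.859 in edgeR. The values did not overlap. Mrpl22, which lines the tunnel through which the new peptide leaves, had 12.7, 10.1 and 11.2 CPM at 28 months, against 7.36 CPM at 18 months. Mrpl13 and Mrpl47 also had their 18-month value below all others, with log2 differences of 0.57 ± 0.29 and 0.45 ± 0.27 (SE). Choice by smallest p in these same data makes such gaps likely.

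In the other direction stood Mrpl36, a small protein with a bacterial counterpart. Mrpl36 had 9.70, 8.13 and 7.75 CPM at 28 months, against 14.0 CPM at 18 months. The log2 difference was -0.72 ± 0.28 (SE), and edgeR's adjusted p was 0.859. The groups did not overlap. Almost all counts of Mrpl36 came from its last bin, with 627, 766 and 450 counts at 28 months, against 902 at 18 months, while its first bin had 21, 27 and 18 counts, against 11. On the 5′ side of the middle of the tested bins the estimate of Mrpl36 was 0.32, and that of Mrpl50 was 0.16. Mrpl50 had 34.3, 29.2 and 27.5 CPM at 28 months, against 43.3 CPM at 18 months. Mrpl44, mutated in an inherited cardiomyopathy in humans, had 20.3, 18.8 and 19.7 CPM at 28 months, against 25.9 CPM at 18 months. The 28-month values of Mrpl44 lay close together and all below the 18-month one, and its log2 difference was -0.40 ± 0.24 (SE). Mrpl57 differed by -0.36 ± 0.38 (SE) on the log2 scale, or by 0.81 on the 5′ side of its tested bins, and Mrpl10, which anchors the factor-binding stalk, by -0.26 ± 0.30 (SE).

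Several genes with defined roles gave estimates smaller than or close to their standard errors. The stalk gene Mrpl12 had 135, 63.3 and 109 CPM at 28 months, against 92.4 CPM at 18 months, a spread at 28 months that holds the 18-month value. Mrpl45, which attaches the ribosome to the inner membrane, had 78.6, 60.8 and 74.3 CPM at 28 months, against 78.6 CPM at 18 months. Mrpl58, a peptidyl-tRNA hydrolase that frees stalled ribosomes, had 65.1, 34.5 and 48.1 CPM at 28 months, against 36.3 CPM at 18 months. Mrpl3, a core protein also mutated in human cardiomyopathy, had 37.3, 56.3 and 37.2 CPM at 28 months, against 38.1 CPM at 18 months. In Mrpl3 replicate 2 was the highest library, unlike most of the other genes.

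In the small subunit the 5 smallest p-values among genes with higher estimates belonged to Mrps18b, Mrps21, Mrps18c, Mrps11 and Mrps27, and none passed the test. Mrps18b had 50.1, 35.6 and 46.0 CPM at 28 months, against 29.0 CPM at 18 months, which is 0.60 ± 0.32 (SE) on the log2 scale. Mrps21 had 129, 98.3 and 95.2 CPM at 28 months, against 72.7 CPM at 18 months. All 5 genes had an 18-month value below each value at 28 months, which their choice by smallest p makes likely. Of all 26 small subunit genes 8 had this (30.8%, background 25.4%). On the 5′ side of the middle of the tested bins, the estimates of Mrps18c and Mrps11 turned to -0.061 and -0.57. Mrps18a, Mrps18b and Mrps18c are related copies of a bacterial small subunit protein, and the product of Mrps18a sits in the large subunit. Mrps18c had 64.3, 43.2 and 50.1 CPM at 28 months, against 37.9 CPM at 18 months, with no overlap. Mrps18a had 86.0, 53.6 and 78.6 CPM at 28 months, against 61.5 CPM at 18 months, and its groups overlapped.

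Of the 4 small subunit genes with lower estimates, only Mrps2 had its 18-month value above all others. Mrps2 had 12.2, 8.89 and 10.5 CPM at 28 months, against 13.0 CPM at 18 months, but on the 5′ side of the middle of the tested bins its log2 difference was 0.55. Mrps25, Mrps26 and Mrps12 differed by -0.12 ± 0.28, -0.08 ± 0.47 and -0.04 ± 0.43 (SE) on the log2 scale. Mrps12 is a protein of the decoding centre. Mrps16 and Mrps22, both mutated in human respiratory chain deficiency, differed by 0.02 ± 0.33 and 0.10 ± 0.27 (SE).

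**Figure D2:**
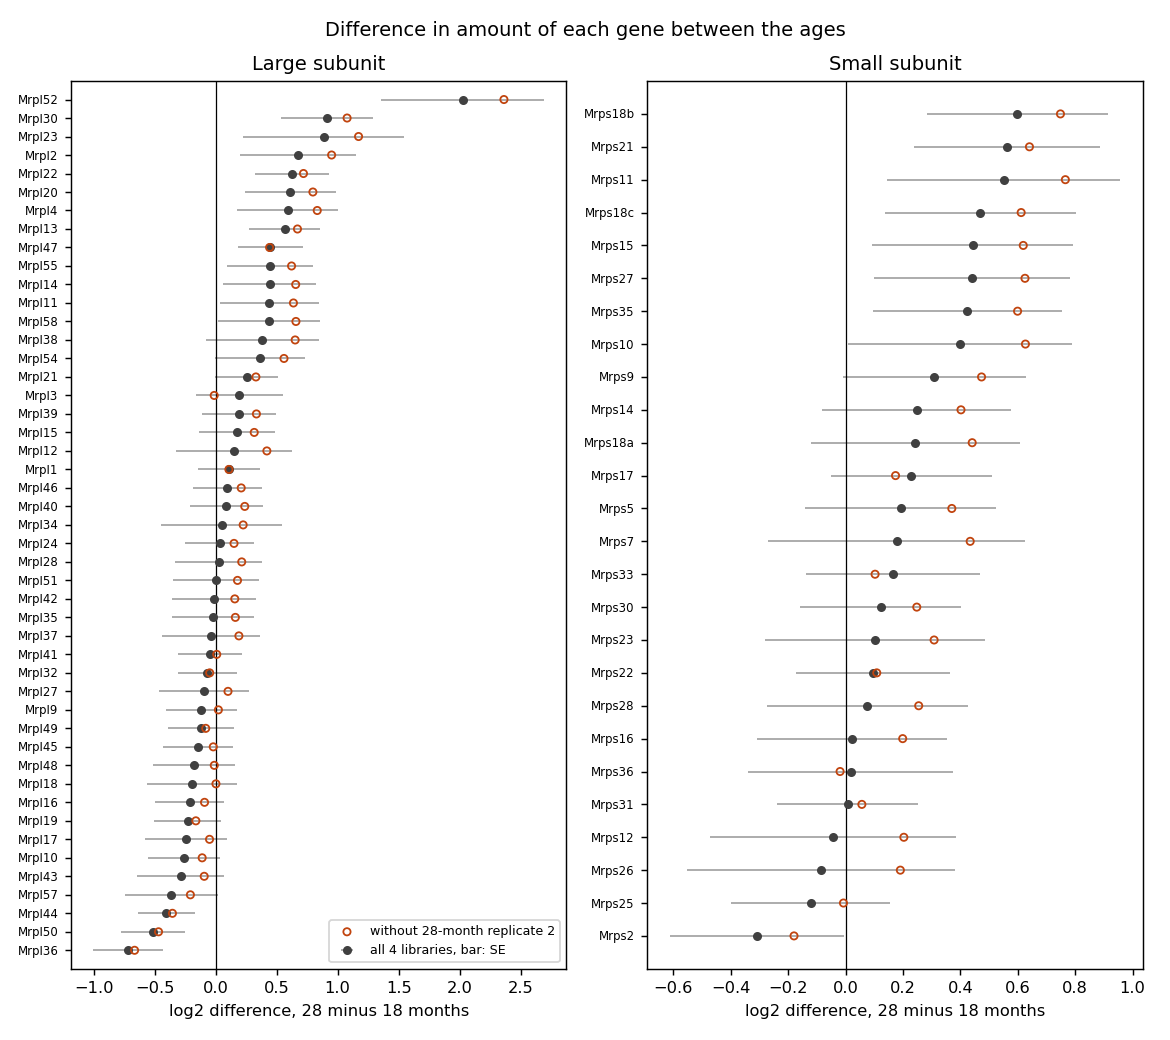
Log2 difference in amount (28 minus 18 months) of each large and small subunit gene, ordered by size, with all 4 libraries (filled points, bars are SE) and without 28-month replicate 2 (open circles). Mrpl52 stands farthest to the right at 2.02 and Mrpl36 farthest to the left at -0.72, and the panels have different horizontal scales.

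Summed over each subunit, the ages overlapped. The large subunit summed to 2469, 1658 and 2125 CPM at 28 months, against 1889 CPM at 18 months. The small subunit summed to 1198, 821 and 1030 CPM at 28 months, against 847 CPM at 18 months. In both subunits replicate 2 lay below the 18-month library and the other 28-month libraries lay above it. The sum of all 73 genes was 3100 ± 596 CPM at 28 months (SD, n = 3), against 2736 CPM at 18 months (n = 1), with a p of 0.75 in an exact two-sided permutation test. Before scaling between libraries, the genes took 0.322, 0.318 and 0.283% of all counts at 28 months, against 0.271% at 18 months, where the groups did not overlap.

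The balance between the subunits varied little among the 28-month libraries. The summed CPM of the large subunit was 2.06, 2.02 and 2.06 times that of the small subunit at 28 months, against 2.23 times at 18 months. The mean at 28 months was 2.05 ± 0.0241 (SD, n = 3), and all 3 libraries lay below the 18-month one. The exact two-sided permutation test gave p = 0.25, the smallest that 3 libraries against 1 allow. Genes were assigned to subunits by name. The small subunit sum therefore includes Mrps18a, whose product sits in the large subunit, and Mrps36, now assigned to another complex. The ratio without them was not computed.

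**Figure D3:**
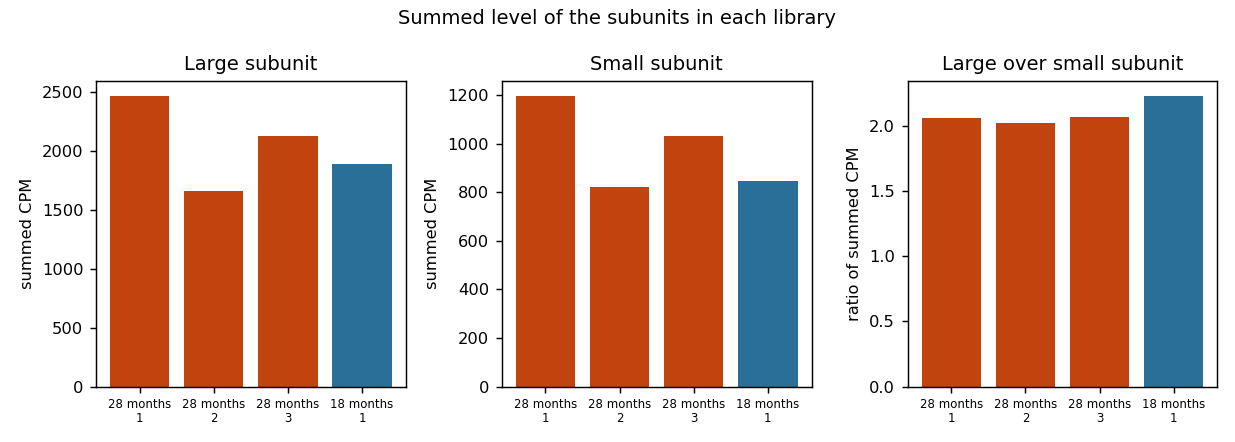
Summed CPM of the large subunit genes, summed CPM of the small subunit genes and the ratio of the sums, with a bar for each 28-month library (left) and the 18-month library (right). Subunits are by gene name. The sums overlap between the ages, and the ratio is 2.06, 2.02 and 2.06 at 28 months, against 2.23 at 18 months.

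The rRNAs of this ribosome are transcribed in the mitochondrion. The small subunit rRNA gene mt-Rnr1 had 432, 600 and 323 CPM at 28 months, against 1266 CPM at 18 months. The large subunit rRNA gene mt-Rnr2 had 729, 853 and 702 CPM at 28 months, against 2197 CPM at 18 months. Their log2 differences were -1.49 ± 0.43 and -1.53 ± 0.35 (SE), each with an adjusted p of 0.859 in edgeR. Both sets of values stood apart, and mt-Nd6, the other gene among the 3 of smallest p, differed by -1.62 ± 0.38 (SE). Of 15 listed mitochondrially encoded genes 8 were counted as single genes, and all 8 were tested. EdgeR called 0, DESeq2 called 1, and 4 had an unadjusted p under 0.05 in edgeR, beside a background of 4.9%. All 8 estimates were lower at 28 months, with a median of -1.36. Without replicate 2, edgeR called 6 of the 8 lower at 28 months, beside a background of 4.37%.

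Nuclear genes that work with the mitochondrial ribosome gave no calls either, in edgeR or in DESeq2. At an unadjusted p under 0.05 in edgeR there was 1 gene each among translation factors, assembly factors and synthetases, and 0 in the other lists. The background was 4.9%. The list of ribosome proteins with other names, which also held Lactb and Oxa1l, had a median log2 difference of 0.15 over 7 genes. In it Dap3 had 170, 93.9 and 149 CPM at 28 months, against 91.0 CPM at 18 months. Translation factors had a median of -0.02 over 16 genes, 8 higher and 8 lower. Slirp, which stabilises mitochondrial messages, had the smallest p, with 93.9, 80.7 and 70.4 CPM at 28 months, against 45.0 CPM at 18 months. Assembly and rRNA modification factors had a median of -0.05 over 25 genes, with 12 higher and 13 lower. Among them Mtg1, a GTPase of large subunit assembly, had 29.2, 31.4 and 30.6 CPM at 28 months, against 17.5 CPM at 18 months. Gtpbp10, another assembly GTPase, had 7.86, 7.05 and 8.25 CPM at 28 months, against 12.5 CPM at 18 months. Mitochondrial aminoacyl-tRNA synthetases, listed here together with Qrsl1, Gatb and Gatc, had a median of 0.07 over 22 genes. The smallest p was that of Rars2, with 44.9, 35.9 and 39.6 CPM at 28 months, against 19.4 CPM at 18 months. Genes of mitochondrial DNA maintenance and transcription had a median of -0.18 over 13 genes. Without replicate 2, edgeR called 7 of the 22 synthetases, 3 of the 25 assembly factors, 1 of the 16 translation factors, 1 of the 7 proteins with other names and 0 of the 13 genes of DNA maintenance and transcription, all higher at 28 months, beside the background of 7.52%.

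Levels of markers of other cell types are given under the same limit of 1 library at 18 months. All 6 macrophage markers had 18-month values below each value at 28 months, beside a background of 25.4% of all genes. Their sum was 76.9, 132 and 137 CPM at 28 months, against 47.1 CPM at 18 months. All 5 Schwann cell markers had 18-month values above the others, beside a background of 26.4% of all genes. They summed to 110, 36.5 and 88.8 CPM at 28 months, against 217.9 CPM at 18 months. Red blood cell markers summed to 378, 145 and 3785 CPM at 28 months, against 183 CPM at 18 months, so replicate 3 stood far above the rest. Adipocyte markers had higher estimates at 28 months in 5 of 5 tested genes. All 6 listed summed to 4212, 4578 and 3617 CPM at 28 months, against 3217 CPM at 18 months. The part of these cells in the values of the ribosomal protein genes was not tested.

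The use of single bins within the genes differed between the ages in a share of these genes that depended on the test. At an adjusted p under 0.05 in edgeR's test of bin use (Simes p-values per gene), 12 of the 73 genes were called (16.4%), beside a background of 3.54% of 11000 genes. With the gene F-test, which pools all bins of a gene, 23 were called (31.5%), beside a background of 30.7%, so their share was near that of all genes. With limma 16 were called (21.9%), beside a background of 16.05%. The 12 were 6 of the 47 large subunit genes (12.8%) and 6 of the 26 small subunit genes (23.1%). The genes had more counts than most, with a median of 2394 tested counts against 1170 over all genes. Where genes had at least 1000 tested counts, 11 of 60 were called (18.3%), beside a background of 5.88%. Of the 12 genes, 5 were also called without each 28-month library in turn, namely Mrpl1, Mrpl30, Mrps14, Mrps17 and Mrps33. Without replicate 3 the calls among the 73 genes numbered 5 (background 1.55%), without replicate 1 they numbered 8 (background 2.13%), and without replicate 2 they numbered 37 (background 30.5%).

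By single bins, 14 of 597 were called (2.35%, background 0.366%). Use was higher at 28 months in 9 bins (1.51%, background 0.208%) and lower in 5 (0.838%, background 0.158%). Of the 9 bins with higher use at 28 months, 6 were the 5′-most tested bin of their gene, 2 were the second and 1 lay farther in.

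**Figure D4:**
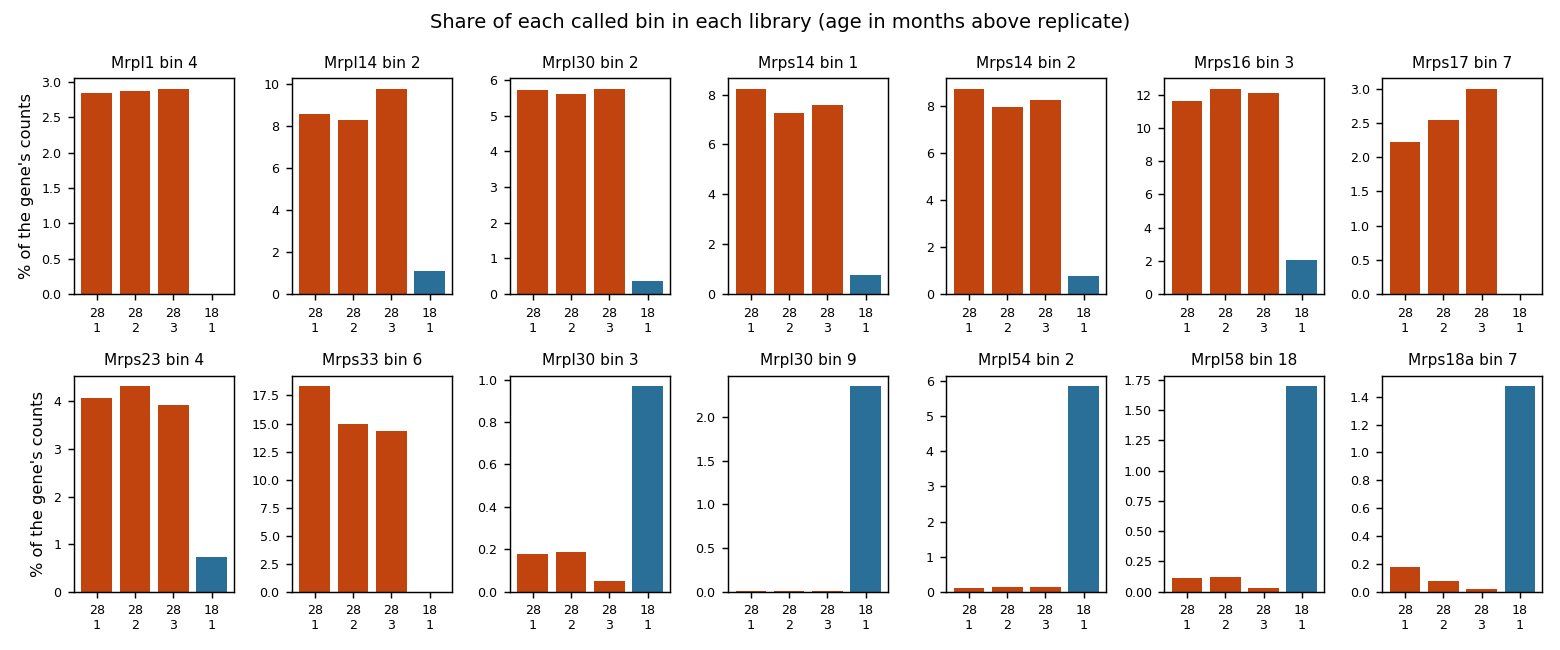
Share of the gene's counts in each of the 14 called bins, as a percentage, in 28-month libraries 1 to 3 (left bars) and the 18-month library (right bar), each panel with its own axis from 0. The first 9 panels are bins used more at 28 months, 3 of them at 0 at 18 months, and the last 5 are bins used less at 28 months.

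In 3 genes a called bin near the 5′ end had counts in every 28-month library and 0 at 18 months. These bins reached the minimum average count for testing only through the 28-month libraries. Their higher use at 28 months and the lack of overlap are therefore partly set by that filter. The 5′-most tested bin was at 0 at 18 months in 3 of the 73 genes (4.11%), and in 313 of all genes tested (2.85%). In Mrps33 this 5′-most bin is an uncalled one beside the called bin. Mrpl1, a protein of the flexible stalk beside the exit site, had 90, 130 and 73 counts in bin 4 at 28 months, against 0 at 18 months. These were 2.84, 2.88 and 2.91% of the gene's counts at 28 months, so the libraries were nearly alike, against 0 of 2727 counts at 18 months, which allows up to 0.110%. The share was at least 26.1-fold higher at 28 months, with an adjusted p of 3.74e-07 in edgeR. The bin is a noncoding piece of 50 bases of a first exon (chr5:96210144-96210193, plus strand, GRCm38).

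In Mrps17, the counterpart of a bacterial small subunit protein, bin 7 had 72, 129 and 74 counts at 28 months, against 0 of 2626 counts at 18 months, a share at least 22.6-fold higher at 28 months (edgeR adjusted p = 1.37e-06). In Mrps33, a protein found only in mitochondrial ribosomes, bin 6 had 117, 152 and 71 counts at 28 months, against 0 of 550 counts at 18 months. These were 18.3, 14.98 and 14.4% of its counts at 28 months, and the 18-month count allows up to 0.545%, at least 29.1-fold less (edgeR adjusted p = 1.4e-05). The neighbouring bin 7 of Mrps33, nearer the 5′ end, also had 0 counts at 18 months, with 21, 31 and 9 at 28 months (edgeR adjusted p = 0.0878).

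Mrps14, which binds the rRNA of the small subunit head, was called in its first 2 bins. Bin 1, 88 noncoding bases of the first exon (chr1:160195215-160195302, plus strand, GRCm38), had 447, 385 and 309 counts at 28 months, against 28 at 18 months. Bin 2, 9 coding bases that follow it directly, had 474, 423 and 337 counts at 28 months, against 28 at 18 months, so both may count the same fragments. The share of bin 1 was 8.23, 7.24 and 7.57% at 28 months, against 0.753% at 18 months (exact Clopper-Pearson 95% interval 0.501 to 1.09%). Intervals here cover counting error only.

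The 5′-most tested bin was also called in Mrpl14, Mrps16 and Mrpl30. In Mrpl14, an interface protein, bin 2 held 8.60, 8.31 and 9.79% of counts at 28 months, against 1.08% at 18 months (edgeR adjusted p = 0.0161). Bin 2 of Mrpl14 overlaps exonic sequence of Tmem63b on the other strand, and since the strand setting of the counting is not known, reads of these genes cannot be told apart there. In Mrps16 bin 3 held 11.6, 12.4 and 12.1% of counts at 28 months, against 2.03% at 18 months (edgeR adjusted p = 0.0353). In Mrps23 a coding bin of 42 bases, the third tested, held 4.08, 4.31 and 3.92% of counts at 28 months, against 0.732% at 18 months (edgeR adjusted p = 0.032). Mrpl49 was called as a gene (edgeR adjusted p = 0.0371) while its first tested bin was not (adjusted p = 0.0708), with 6.99, 5.19 and 6.11% of counts at 28 months, against 1.14% at 18 months. Mrpl35, Mrpl22, Mrpl24 and Mrpl13 came next by p and were not called. In Mrpl35 the 5′-most bin held 9.68, 9.40 and 9.98% of counts at 28 months, against 2.45% at 18 months (edgeR adjusted p = 0.123).

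Mrpl30 (ENSMUSG00000026087, chromosome 1, 37890477 to 37898535, plus strand, GRCm38) had 3 called bins that differed in direction. Bin 2, the 5′-most tested one, had 897, 828 and 679 counts at 28 months, against 24 at 18 months. That is 5.74, 5.60 and 5.76% of its counts at 28 months, against 0.357% at 18 months (exact interval 0.229 to 0.531%). Bin 9, in the later part of the gene, had 2, 2 and 1 counts at 28 months, against 158 at 18 months. Its share was 0.0116 ± 0.0027% (SD, n = 3) at 28 months, against 2.35% at 18 months (exact interval 2.00 to 2.74%, edgeR adjusted p = 2.87e-09). Bin 3 had 28, 28 and 6 counts at 28 months, against 65 at 18 months. All 3 bins had shares that did not overlap between the ages. Bin 9 reached the minimum average count for testing only through the 18-month library. Its lower use at 28 months and its lack of overlap are therefore partly set by that filter. The other bins of Mrpl30 also shifted along the gene. The tested bins 3 to 6 from the 5′ end had lower shares in the 18-month library and the last 3 had higher shares, with the final one at 14.2, 13.2 and 14.4% at 28 months, against 23.7% at 18 months. Mrpl30's bins could not be placed on the reference annotation, so what bins 3 and 9 cover is not stated.

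**Figure D5:**
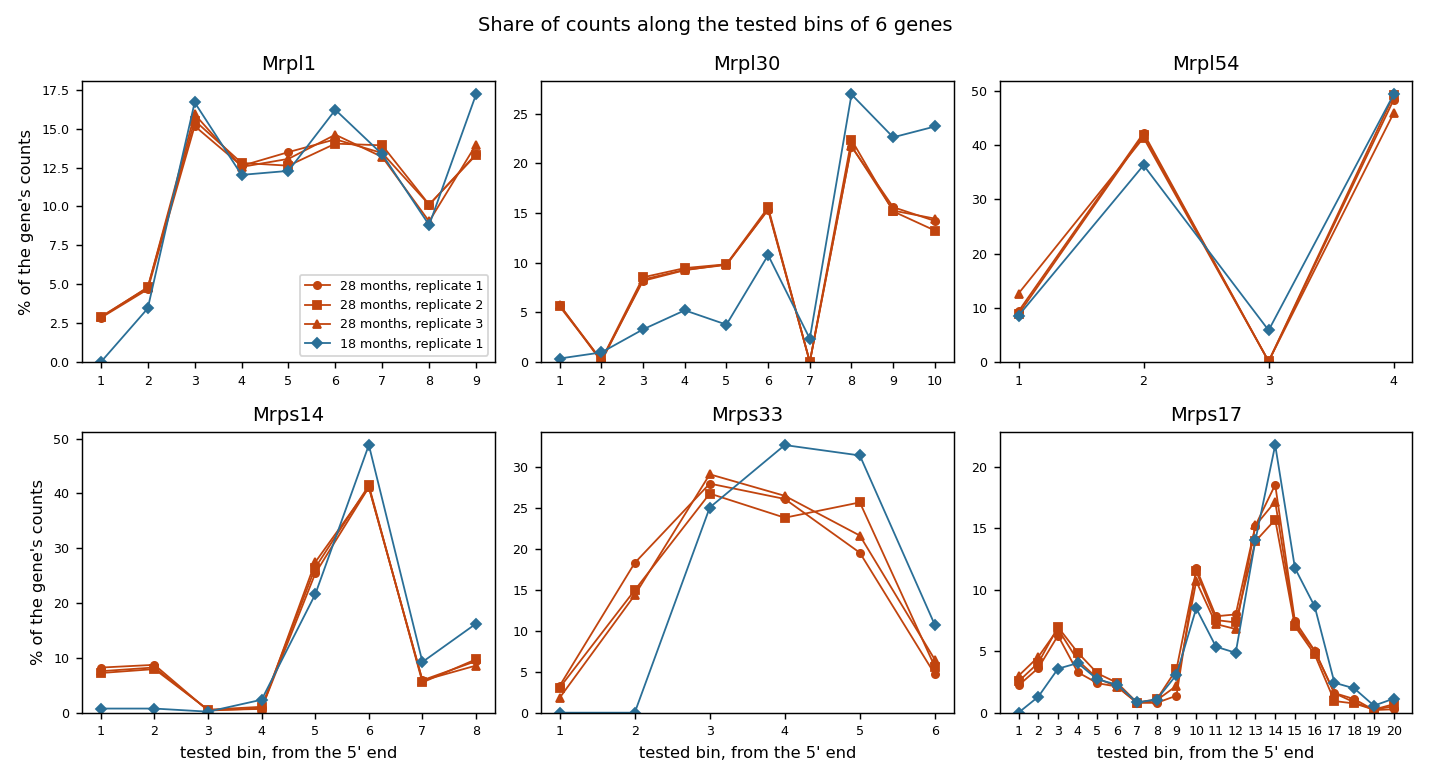
Share of the gene's counts (percent) in each tested bin, numbered from the 5′ end, for Mrpl1, Mrpl30, Mrpl54, Mrps14, Mrps33 and Mrps17, with 28-month libraries 1 to 3 in red and the 18-month library in blue. The 28-month lines lie close together, and the 18-month line starts lower at the 5′ end, at 0 in Mrpl1, Mrps33 and Mrps17.

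The sequence before the first base of Mrpl30 (chr1:37890227-37890476, plus strand, RefSeq, GRCm38.p6) is shown because Mrpl30 has the smallest p for bin use of the 73 genes. Capitals mark a match to GCGCNTGCG, the site of NRF1, a factor known to drive nuclear genes for mitochondrial proteins.
Mrpl30 upstream: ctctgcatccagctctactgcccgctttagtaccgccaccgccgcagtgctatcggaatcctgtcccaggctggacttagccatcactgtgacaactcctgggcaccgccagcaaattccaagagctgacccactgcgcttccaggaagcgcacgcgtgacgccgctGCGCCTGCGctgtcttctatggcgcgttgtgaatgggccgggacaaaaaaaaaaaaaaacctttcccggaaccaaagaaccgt

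RefSeq promoters were found for 65 of the 73 genes, 71 promoters in all, each from 250 bases before to 50 after the start, and both strands were searched. The NRF1 pattern was in 18 of them (25.4%), against 6.31% of 32851 mouse promoters. CCGGAAGT, bound by GABP and other ETS factors, was in 11 (15.5%, against 3.89%). AAGATGGCG, bound by YY1, was in 7 (9.86%, against 1.40%), and TATAAA was in 4 (5.63%, against 13.6%). The promoters of these genes had a median GC content of 58.3%, against 52.7% over all promoters. These matches are descriptions of the sequence, not sites shown to be bound.

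In 3 further genes the called bin was used less at 28 months and belongs only to transcripts annotated as retaining an intron. Mrpl54, a protein found only in mitochondrial ribosomes, had 2, 2 and 2 counts in bin 2 at 28 months, against 65 at 18 months. Its share was 0.128 ± 0.0181% (SD, n = 3) at 28 months, against 5.85% at 18 months (exact interval 4.54 to 7.40%, edgeR adjusted p = 0.00181). Mrps18a had 10, 4 and 1 counts in bin 7 at 28 months, against 59 at 18 months, or 0.0907 ± 0.0775% (SD, n = 3) of its counts, against 1.47% (exact interval 1.12 to 1.90%, edgeR adjusted p = 0.00141). In Mrpl58 bin 18 had 5, 4 and 1 counts at 28 months, against 39 at 18 months, or 0.0902 ± 0.0482% (SD, n = 3) of its counts, against 1.70% (exact interval 1.21 to 2.31%, edgeR adjusted p = 0.0134). In none of the 3 genes did the shares overlap between the ages. All 3 bins reached the minimum of 10 counts on average only through the 18-month library. Their lower use at 28 months and the lack of overlap are therefore partly set by that filter. Mrpl54 and Mrpl58 were called without replicate 1 and without replicate 2 but not without replicate 3 (adjusted p 0.0669 and 0.77), and the same held for Mrps18a (0.212). The gene call of Mrpl58 was also lost with limma (adjusted p = 0.121) and with edgeR's gene F-test (adjusted p = 0.0733). All 3 bins average fewer than 30 counts, and with that minimum they were not tested and their genes were not called, while 8 of 70 genes were (11.4%, background 2.55%).

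The exon edges of these bins are shown because the bins begin or end where an intron would be cut out. Capitals mark 15 exon bases and lower case the adjoining 60 bases of the bin, read from the intron-retaining transcript. They lie at chr10:81265591-81265665 (minus strand) for Mrpl54, chr17:46122817-46122891 (plus strand) for Mrps18a and chr11:115410172-115410246 (plus strand) for Mrpl58, in GRCm38.
Mrpl54 bin 2: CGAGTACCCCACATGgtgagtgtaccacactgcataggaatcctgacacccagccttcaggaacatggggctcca
Mrps18a bin 7: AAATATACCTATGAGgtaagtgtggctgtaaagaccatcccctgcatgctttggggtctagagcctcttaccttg
Mrpl58 bin 18: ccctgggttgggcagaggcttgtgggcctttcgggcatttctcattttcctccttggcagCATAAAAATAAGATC
The bins of Mrpl54 and Mrps18a open with gt, the usual first bases of an intron, and that of Mrpl58 closes with ag, the usual last ones.

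Over the 44 placed genes, bins of intron-retaining transcripts alone took 0.0813, 0.221 and 0.0780% of counts at 28 months, against 0.293% at 18 months. Replicate 2 lay nearest to the 18-month library. These shares include the 3 bins described above, which reached the minimum of 10 counts on average only through the 18-month library. The higher share at 18 months is therefore partly set by that filter, and the shares without these bins were not computed. There were 10 such bins in 9 genes, and the 18-month share lay above all others in 5 of them (50.0%, background 40.7%). The 5 include the same 3 bins. The 3 called were the ones described above, and over all placed genes 93 of 1024 such bins (9.08%) were called lower at 28 months. All placed genes together had 0.134, 0.246 and 0.139% of counts in such bins at 28 months, against 0.259% at 18 months. Coding bins took 63.9, 64.2 and 64.7% of counts at 28 months, against 56.6% at 18 months. Untranslated bins of coding transcripts took 35.8, 35.3 and 35.0% at 28 months, against 42.8% at 18 months. The same direction held over all placed genes, where coding bins took 69.4, 67.7 and 70.3% of counts at 28 months, against 59.8% at 18 months.

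The shift along the transcript was present in most of the genes and was as frequent among all genes. The 18-month share of the 5′-most tested bin lay below all values at 28 months in 45 of the 73 genes (61.6%, background 63.3%) and above them in 12 (16.4%, background 12.1%), with median shares of 3.93, 3.48 and 3.90% at 28 months, against 1.38% at 18 months. The 3′-most bin lay above all others at 18 months in 59 genes (80.8%, background 85.7%) and below them in 4 (5.48%, background 2.79%), with medians of 14.2, 14.5 and 14.4% at 28 months, against 20.5% at 18 months. The tested bins on the 5′ side of the middle together had their lowest share at 18 months in 54 genes (74.0%, background 76.5%) and their highest there in 7 (9.59%, background 5.62%). The part of this shift in the called bins at the 5′ ends was not tested by itself. With the first and last tested bins left out, 6 of 62 genes were called (9.68%), beside a background of 2.18%.

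Some values are uncertain for reasons of counting. The pseudogene copy Mrpl23-ps1 had 2093, 1656 and 1573 counts at 28 months, against 2113 at 18 months, while Mrpl23 itself had 121, 88 and 109 counts, against 53. How reads that fit both were divided is not given in the sources used here. Copies named for Mrpl48 and Mrps36 also carried counts. In 26 of the 73 genes, exons overlap those of a gene on the other strand, among them 3 of the 12 genes called in bin use (Mrpl14, Mrpl49 and Mrpl58). Mrps36 is counted with the small subunit by its name, although its protein is now known as part of the oxoglutarate dehydrogenase complex, and its log2 difference was 0.02 ± 0.36 (SE).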

How the data were processed

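The authors deposited 4 tables of raw counts per exonic bin, made after TopHat2 2.0.4 and bcl2fastq 1.8.3 with build GRCm38, per the submitters' processing notes. The counting tool, annotation release and strand setting are not given in the sources used here. Totals per library lay between 65780464 and 76163175 counts, and 5 special entries (3.36 to 5.20% of all counts) were left out.

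Gene values were sums of the deposited counts over bins. Amounts were compared with edgeR 4.0.16 (quasi-likelihood test, TMM scaling, mean count of at least 10), and bin use with edgeR's diffSpliceDGE (Simes p-values, bins averaging 10 counts or more), each on all genes with Benjamini-Hochberg adjustment and a threshold of 0.05. All 4 libraries entered each fit without covariates. TMM factors were 0.877, 1.28 and 0.897 at 28 months, against 0.990 at 18 months. DESeq2 1.42.0 and limma 3.58.1 (R 4.3.3) gave alternatives, and the tests were tried on simulated data. The simulated spread between libraries was smaller than that fitted here, so those trials do not show how often a change would be found in these data. Sums and ratios were compared by exact permutation. Shares of a single library have exact Clopper-Pearson 95% intervals, a count of 0 was read as at most 3 counts, and both cover counting error only.

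Symbols and positions came from GENCODE M21 (GRCm38). Bins were placed where a gene's number of bins equals that of this annotation, for 16844 of 25309 genes with several bins (66.6%) and 44 of the 73 genes described.

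Named genes were, per subunit, the 5 genes of smallest p on each side and the 3 highest and lowest per kilobase, every gene called in bin use and the next 4, genes fixed for their roles, and up to 3 genes of smallest p in each other list. Mrpl4, Mrpl20, Mrpl23 and Mrps36 were named after their values were seen. The genes and lists were chosen with earlier results of these data known. Alternatives included other filters and scalings, the most covered bin in place of the sum, leaving out each 28-month library and, chosen after seeing the data, sums over the tested bins on the 5′ or on the 3′ side of the middle.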

Additional observations from a re-analysis of the deposited data

How the results depend on the processing

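With 1 library at 18 months, each comparison rests on that library, and depth limits bins with few counts. No paired analysis was possible with 1 library at 18 months, and the sample titles mark no pairs.

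The 0 genes called for amount became 31 with DESeq2, and between 0 and 1799 with a 28-month library left out; for the ribosomal protein genes between 0 and 8. Their median log2 difference of 0.11 became 0.41 when the most covered bin stood for the gene (0.38 in the large and 0.45 in the small subunit), with 0.06 over all genes either way; the cause was not tested. The subunit ratio at 28 over that at 18 months, 0.918, was 0.875 with the most covered bin, 0.902 without the most abundant gene of each subunit, 0.963 with the tested bins on the 5′ side of the middle and 0.907 with those on the 3′ side.

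Bin use called 389 genes in all, against 3375 with the gene F-test, 1765 with limma, 234 with at least 30 counts per bin, 206 without the first and last bins, and 171 to 3250 with a 28-month library left out. Among the 73 genes the 12 calls (16.4%, against 3.54% of all genes) became 23 with the F-test (31.5%, against 30.7%), 16 with limma (21.9%, against 16.05%), 8 of 70 with at least 30 counts per bin (11.4%, against 2.55%), 6 of 62 without the end bins (9.68%, against 2.18%), and 5 to 37 with a library left out.

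Among the genes named by rule, estimates of uncalled genes changed sign as follows, and the cause was not tested. Over all 73 genes, 12 changed sign without replicate 2, Mrps36 among them (-0.019). With the bins of the 5′ side the log2 differences were 0.32 for Mrpl36, 0.16 for Mrpl50, 0.81 for Mrpl57, 0.028 for Mrpl19, 0.17 for Mrpl17, -0.011 for Mrpl12, -0.061 for Mrps18c, -0.57 for Mrps11, 0.55 for Mrps2, 0.63 for Mrps26, 0.026 for Mrps12, -0.16 for Mrps7, -0.080 for Mrps15, -0.41 for Mrpl3, -0.31 for Mrps22 and -0.28 for Mrps18a. With the most covered bin they were 0.0085 for Mrpl57, 0.21 for Mrpl48, 0.19 for Mrpl17, 0.33 for Mrps25, 0.12 for Mrps26, 0.0091 for Mrps12 and -0.18 for Mrps23, and with the 3′ side Mrps16 was -0.024. With a 28-month library left out, Mrpl12 lay between -0.10 and 0.42, Mrpl18 between -0.38 and 0.0023, Mrps26 between -0.31 and 0.19, Mrps12 between -0.24 and 0.20, Mrps23 between -0.10 and 0.31, Mrps7 between -0.038 and 0.43, Mrpl3 between -0.012 and 0.30 and Mrps16 between -0.12 and 0.20. Without replicate 2, edgeR called the named genes Mrpl52 (2.36), Mrpl30 (1.08), Mrpl13 (0.67), Mrpl2 (0.95), Mrps18b (0.75) and Mrps15 (0.62).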
